A study of Mus musculus with 6 samples.

Results

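The nuclear respiratory chain subunits were taken as the protein-coding genes whose symbols begin with Nduf (followed by a, b, c, s or v and a number), Uqcr, Cox (with a number between 4 and 8) or Atp5, together with Sdha, Sdhb, Sdhc, Sdhd and Cyc1. The rule used names and biotypes alone and found 85 genes among 53379 counted gene identifiers, of which 37 belong by name to complex I, 4 to complex II, 9 to complex III, 18 to complex IV and 17 to complex V. A further 12 symbols of the same pattern were pseudogenes or non-coding genes and were left out. Their RNA was measured by RNA-seq in Min6, a line from a mouse insulinoma that keeps many traits of pancreatic beta cells. One group received a lentiviral CRISPR vector (lentiCRISPR v2) with a guide RNA against JunD, and the other the same vector with a guide against the Rosa26 locus, the negative control. Each group had 3 libraries. Both were at passage 28, were grown in high-glucose medium, were harvested 8 days after transduction and had spent 30 hours in glucolipotoxic conditions before harvest, so no unstressed or untransduced cells enter any comparison. The labels do not say whether the replicates came from separate transductions or whether the cells were clonal, so each p-value reflects how far these libraries scatter, which may be technical scatter alone.

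The respiratory chain sits in the inner mitochondrial membrane. Complex I (NADH dehydrogenase) and complex II (succinate dehydrogenase) pass electrons to coenzyme Q, complex III (the cytochrome bc complex) passes them on to cytochrome c, and complex IV (cytochrome c oxidase) to oxygen. Complexes I, III and IV pump protons, and complex V (ATP synthase) lets the protons back through to make ATP. In beta cells a rise in ATP after glucose uptake closes potassium channels and triggers insulin release. Complex II is encoded wholly in the nucleus, while the other complexes combine nuclear subunits with subunits encoded in mitochondrial DNA. For complex IV the mitochondrial genome encodes the catalytic subunits, and the nuclear ones surround them.

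Jund, the targeted gene, had 22.7, 25.1 and 27.2 CPM (counts scaled by library depth, with trimmed mean of M-values factors) in the JunD gRNA libraries, against 38.6, 34.5 and 30.6 CPM in the Rosa26 gRNA libraries. Its log2 fold change was -0.47 ± 0.11 (SE) over 6 libraries (edgeR quasi-likelihood, Benjamini-Hochberg adjusted p = 0.417) and -0.38 ± 0.08 without Rosa26 gRNA replicate 1 (adjusted p = 0.00773). That library stood apart from the other 5 on the first principal component, at -66.6 against values between 7.09 and 23.6. The fold changes from the main fit are therefore given with it and without it, while some genes are described by level or share alone. Counts came to between 41071566 and 50024931 per library. The 10 beta cell markers that were looked at were present in every library, with Ins2 between 21530 and 54220 CPM. Of 22 markers of other cell types, the alpha cell hormone gene Gcg stood at 513 to 691 CPM, the ductal marker Krt19 at 48.9 to 63.2 CPM, Ppy at 9.90 to 28.4 CPM, Sst at 2.10 to 8.29 CPM, the alpha cell factor Irx2 at 6.05 to 6.80 CPM and the macrophage marker Cd68 at 2.19 to 3.95 CPM. The endothelial marker Pecam1 and the fibroblast markers Col1a1 and Col1a2 lay between 0.588 and 2.14 CPM, and the others had at most 22 counts in all, with Prss1, Amy2a1, Ptf1a and Adgre1 at 0. Counts on the 85 genes made up 0.753%, 0.766% and 0.795% of the total in the JunD gRNA libraries, against 0.609%, 0.739% and 0.726% in the Rosa26 gRNA libraries. Those on the mitochondrial genome made up 1.78%, 1.73% and 1.63% in JunD gRNA libraries, against 2.57%, 1.82% and 1.89% in Rosa26 gRNA libraries. In bulk RNA, fewer cells of a type and less RNA per cell cannot be told apart.

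Levels of the 85 genes ran from 0 to 1208 TPM, a unit of level per transcript length. The most abundant was Cox6a1, a small subunit of complex IV, with 1208 ± 268 TPM (from the summed exon length, SD over 6 libraries), followed by Cox8a with 773 ± 150 TPM. Next were both subunits of the catalytic head of ATP synthase, Atp5b with 663 ± 58.2 TPM and Atp5a1 with 594 ± 50.4 TPM. The SD ranges of Cox8a, Atp5b and Atp5a1 overlapped. The median level was 79.7 TPM for complex I, 119 TPM for complex II, 139 TPM for complex III, 35.2 TPM for complex IV and 119 TPM for complex V. Complex IV held the highest level, and 4 of its genes, Cox4i2, Cox7b2, Cox8b and Cox8c, had too few counts to be tested. Its median fell between Cox5a at 34.6 TPM and Cox5b at 35.8 TPM, with Cox7c just below at 32.4 TPM. Near-identical copies in other genes held 19003 counts against 5827 on Cox5b, and 30534 against 3782 on Cox7c. The TPM values leave out reads on such copies in every complex. The medians therefore do not rank the complexes by level.

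**Figure D1:**
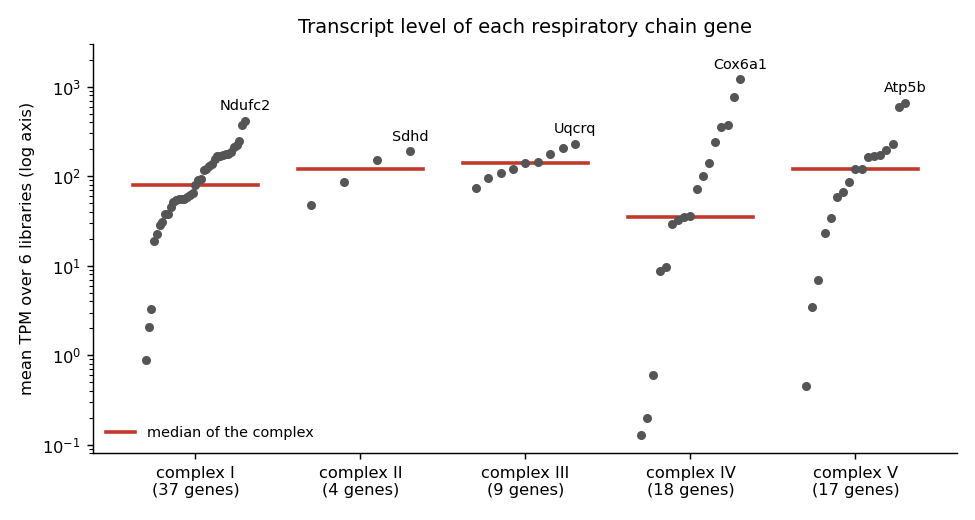
Mean TPM over 6 libraries (log axis) of each gene, ordered by level within its complex, with the median of the complex as a red line and the most abundant gene named. Cox6a1 stands highest at 1208 TPM, and Cox8c, with 0 counts in every library, is not drawn but enters the median of complex IV. Reads on near-identical copies in other genes are left out.

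The other 81 genes passed the filter on low counts. Between the guides, the nuclear respiratory genes sat slightly higher with the JunD gRNA. Their median log2 fold change was 0.19, compared with -0.0064 for all 17767 tested genes. The fold change was positive for 74 of the 81, where the share over all tested genes was 48.9%. None of the 81 passed the test with 6 libraries, and neither did any other gene (edgeR, adjusted p under 0.05, 0 higher and 0 lower, background 0.0%). At an unadjusted p under 0.05, 17 of the 81 were higher (background 5.41%) and 0 lower (background 6.51%). DESeq2 (background 0.118% higher), limma-voom (0.0%) and edgeR without a count filter (0.112%) also called 0 of the 81 in either direction. In 37 of the 81 genes every JunD gRNA library lay above every Rosa26 gRNA library (background 12.9%), and in 1, Ndufb4, every one lay below (background 11.9%). The members are mostly short, 59 of the 81 having under 600 coding bases. Among 1680 other protein-coding genes of that size, named short genes here, 64.8% had a positive fold change. At an unadjusted p under 0.05 (edgeR), 10% of them were higher and 54 genes lower. In 21.3% of them every JunD gRNA library lay above every Rosa26 gRNA library, and in 106 genes below. Backgrounds are those of all tested genes unless short genes are named.

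A large part of the 6-library difference came with a single library. Rosa26 gRNA replicate 1 was the lowest of the 6 libraries for 68 of the 81 genes, compared with 35.5% of all tested genes and 852 of the 1680 short genes. The median deviation of the 81 genes from their own 6-library means was 0.071, 0.083 and 0.15 on the log2 scale in the JunD gRNA libraries, against -0.33, 0.019 and 0.021 in the Rosa26 gRNA libraries. JunD gRNA replicate 3 was the highest of the 6 for 56 genes, compared with 3856 of all 17767 tested genes and 617 of the 1680 short genes. The groups did not overlap on this median, but the gap between JunD gRNA replicate 1 and Rosa26 gRNA replicate 3 was small beside the distance of Rosa26 gRNA replicate 1 from the rest. Without that library the median log2 fold change of the 81 genes was 0.086, and it was positive for 70 of them (background 49.2%).

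**Figure D2:**
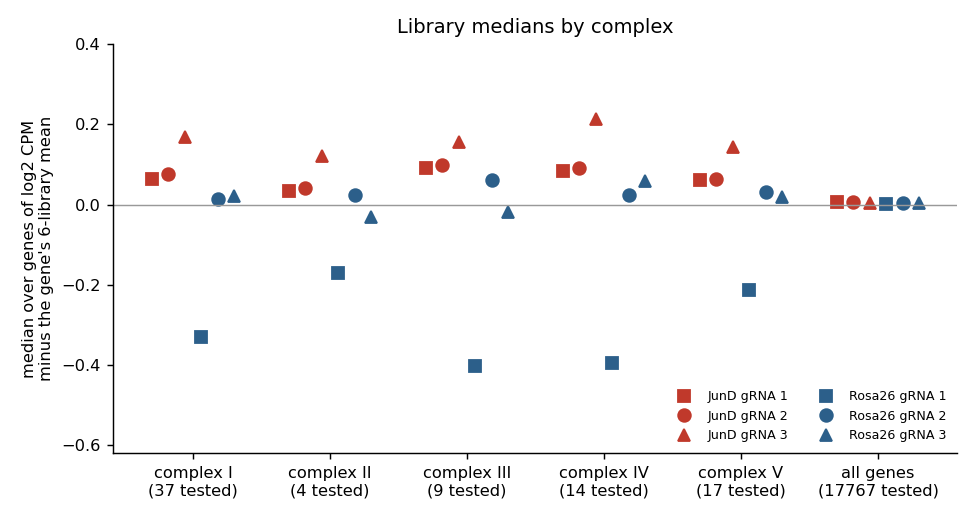
Median over tested genes of the log2 CPM minus the gene's own 6-library mean, for each library (JunD gRNA in red, Rosa26 gRNA in blue) and complex, and for all tested genes. Rosa26 gRNA replicate 1 lies lowest in each complex, between -0.40 for complex III and -0.17 for complex II, while all 6 libraries lie near 0 for all genes.

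On the remaining 5 libraries, 2 of the 81 genes rose, 0 fell and 79 did not pass (edgeR, adjusted p under 0.05). Over all 18296 genes tested, 1.45% rose and 1.4% fell, and of the 1680 short genes 51 rose and 24 fell. At an unadjusted p under 0.05, 28 were higher (background 8.31%) and 0 lower (background 7.59%). In 37 genes the 3 JunD gRNA libraries lay above both Rosa26 gRNA libraries (background 16.9%), and in 4 of the tested genes, Ndufb4, Cox7b, Atp5g2 and Atp5l, they lay below (background 16.6%). Among the 1680 short genes, they lay above in 26.0% and below in 185 genes. At an unadjusted p under 0.05 (edgeR), 14.7% of the short genes were higher and 77 genes lower. DESeq2 (background 1.81% higher) and limma-voom (1.6%) each called 3 members higher on these libraries, and edgeR without a count filter (1.72%) called 9. The genes that rose were Atp5e and Atp5f1, which encode subunits of different stalks of ATP synthase. Whether genes of complex V rose more often than others was not tested. Neither passed when Rosa26 gRNA replicate 2 or Rosa26 gRNA replicate 3 was left out as well, which leaves 1 Rosa26 gRNA library assumed to vary like the JunD gRNA ones. In those fits few genes of any kind were called higher (background 0.0846% and 0.0947%). Without JunD gRNA replicate 1 as well, 9 members were called higher (background 2.1%), without JunD gRNA replicate 2 as well 4 were (background 1.56%), and without JunD gRNA replicate 3 as well 2 were (background 1.77%).

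Atp5e encodes the epsilon subunit of the central stalk, which turns inside the catalytic head. Its counts were 5063, 4823 and 6790 in JunD gRNA libraries, against 2911, 5545 and 5027 in Rosa26 gRNA libraries. Scaled by depth, these were 121.9, 117.5 and 138.3 CPM with the JunD gRNA and 65.8, 110.6 and 105.8 CPM with the Rosa26 gRNA. All JunD gRNA libraries were above all Rosa26 gRNA libraries, and Rosa26 gRNA replicate 1 was far below the others. The log2 fold change was 0.42 ± 0.17 (SE) over 6 libraries (edgeR adjusted p = 0.417) and 0.22 ± 0.06 over 5 (adjusted p = 0.0346). The gene (ENSMUSG00000016252.7) lies on chromosome 2 from 174461072 to 174464105, on the minus strand of GRCm38 (mm10).

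Atp5f1 encodes subunit b of the peripheral stalk, which holds the catalytic head still. It had 95.3, 94.2 and 101.0 CPM in JunD gRNA libraries, against 83.7, 85.4 and 82.8 CPM in Rosa26 gRNA libraries. Here Rosa26 gRNA replicate 1 lay between the other Rosa26 gRNA libraries, unlike in most of the 81 genes. The log2 fold change was accordingly close in both fits, at 0.21 ± 0.07 over 6 libraries (edgeR adjusted p = 0.417) and 0.20 ± 0.05 over 5 (adjusted p = 0.0272). The gene (ENSMUSG00000000563.17) lies on chromosome 3 from 105942698 to 105960099, on the minus strand. A near-identical processed pseudogene, Gm12231, carried 18521 counts against 24702 on Atp5f1 itself. The pseudogene had 68.7, 71.4 and 67.3 CPM in JunD gRNA libraries, against 67.8, 64.7 and 67.1 CPM in Rosa26 gRNA libraries, a log2 fold change of 0.05 ± 0.07 over 6 libraries and 0.07 ± 0.05 over 5 (edgeR adjusted p = 0.703 and 0.586). Summed over both loci, the JunD gRNA minus Rosa26 gRNA difference in mean log2 CPM was 0.14 over 6 libraries and 0.15 over 5.

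**Figure D3:**
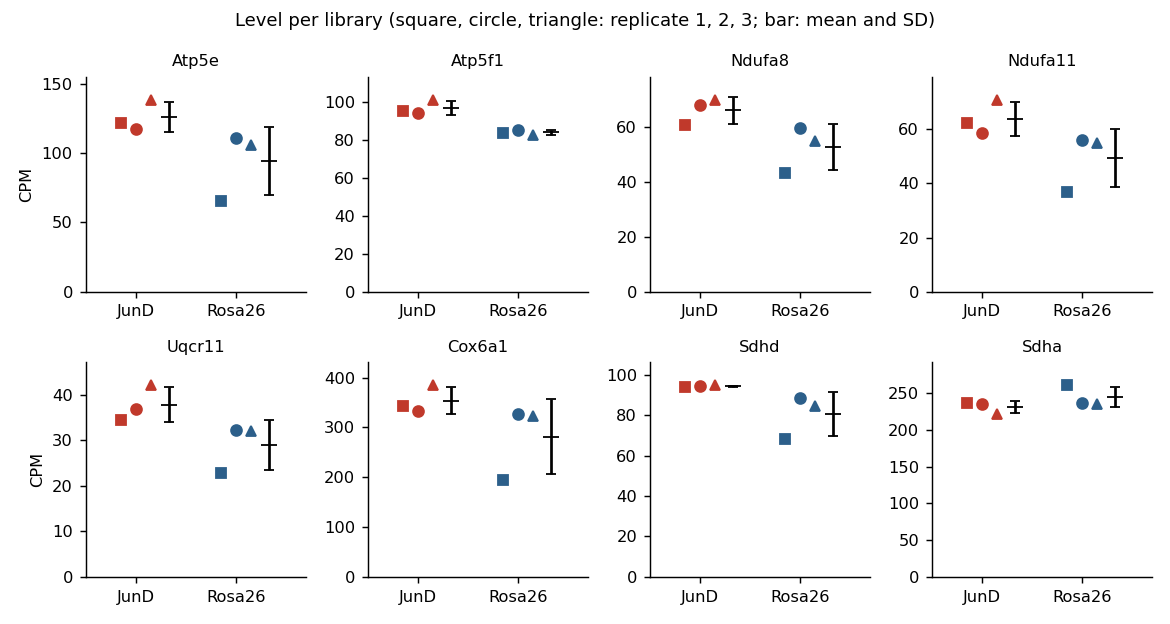
CPM in each library for 8 genes, JunD gRNA left of Rosa26 gRNA, with replicates 1, 2 and 3 as square, circle and triangle and the group mean ± SD (n = 3) as a bar. Rosa26 gRNA replicate 1 is the lowest point in Atp5e, Ndufa8, Ndufa11, Uqcr11, Cox6a1 and Sdhd, lies inside its group in Atp5f1, and is the highest in Sdha.

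The stretch before the transcription start is where known regulators of these genes act. Nuclear respiratory factor 1 (the protein NRF-1) and the ETS factor GABP are established regulators of many of them, and JunD in AP-1 dimers binds AP-1 and CRE sites. The 250 bases before the RefSeq start (GRCm38.p6) were available for 68 of the 85 genes and were searched on both strands for the letters of each motif. The core of the NRF-1 motif, GCGCATGC, stood in 8 of the 68 (11.8%), against 2.56% of 27025 genes with a promoter entry; this core was chosen after counts of a longer form had been seen, and matches on the opposite strands can overlap. The ETS motif CCGGAAG stood in 12 (17.6%), against 7.83% of all such genes. The AP-1 motif TGANTCA stood in 6 (8.82%), against 7.82%, and the CRE motif TGACGTCA in 4 (5.88%), against 1.77%. A match is a run of letters and not a measured site. The upstream stretches of 5 genes described here are shown, Atp5e and Atp5f1 because they passed the test, and Ndufa11, Uqcrh and Cox6a1 because they hold the other motifs. They are written 5′ to 3′ on the strand of the gene, with capitals marking a motif found on either strand.
Atp5e, chr2:174464102-174464351, minus strand: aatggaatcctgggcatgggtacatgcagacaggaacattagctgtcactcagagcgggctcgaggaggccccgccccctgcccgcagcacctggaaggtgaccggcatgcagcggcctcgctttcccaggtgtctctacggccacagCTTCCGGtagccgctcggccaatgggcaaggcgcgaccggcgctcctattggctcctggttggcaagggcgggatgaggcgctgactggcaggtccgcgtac
Atp5f1, chr3:105959264-105959513, minus strand: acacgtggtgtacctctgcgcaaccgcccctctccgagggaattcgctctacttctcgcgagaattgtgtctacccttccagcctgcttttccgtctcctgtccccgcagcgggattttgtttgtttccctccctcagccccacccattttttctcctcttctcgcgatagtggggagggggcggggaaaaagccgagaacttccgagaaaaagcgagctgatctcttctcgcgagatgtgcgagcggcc
Ndufa11, chr17:56717512-56717761, plus strand: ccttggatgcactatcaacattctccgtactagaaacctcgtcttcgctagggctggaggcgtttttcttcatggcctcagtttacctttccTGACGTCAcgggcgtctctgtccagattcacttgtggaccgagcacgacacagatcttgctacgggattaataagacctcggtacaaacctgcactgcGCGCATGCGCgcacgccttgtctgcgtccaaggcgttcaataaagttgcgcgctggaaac
Uqcrh, chr4:116075071-116075320, minus strand: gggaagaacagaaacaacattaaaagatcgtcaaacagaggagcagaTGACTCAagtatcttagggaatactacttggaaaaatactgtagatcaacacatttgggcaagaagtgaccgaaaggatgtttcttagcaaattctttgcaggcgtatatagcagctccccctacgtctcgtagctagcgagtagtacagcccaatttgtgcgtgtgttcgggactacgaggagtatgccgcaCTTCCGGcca
Cox6a1, chr5:115348959-115349208, minus strand: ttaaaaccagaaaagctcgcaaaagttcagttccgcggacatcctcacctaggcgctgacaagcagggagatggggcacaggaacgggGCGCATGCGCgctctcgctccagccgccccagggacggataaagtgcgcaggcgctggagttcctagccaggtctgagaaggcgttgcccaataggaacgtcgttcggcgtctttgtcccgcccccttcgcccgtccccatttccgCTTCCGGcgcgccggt

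In these windows the ETS letters began at -102 relative to the start in Atp5e, at -10 in Uqcrh and at -16 in Cox6a1. Ndufa11 held the CRE letters at -158 and the NRF-1 letters on both strands from -60, Cox6a1 the NRF-1 letters on both strands from -162, and Uqcrh the AP-1 letters at -203. The window of Atp5f1 held none of these 4 runs. It lies inside the gene as GENCODE draws it, since that annotation places an earlier start for Atp5f1.

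Complex I, whose 37 genes were all tested, had a median log2 fold change of 0.22 over 6 libraries, with 35 positive, and of 0.095 over 5, with 34 positive. None passed in either fit (edgeR), while at an unadjusted p under 0.05, 8 were higher with 6 libraries (background 5.41%) and 13 with 5 (background 8.31%). Ndufa8, an accessory subunit that faces the intermembrane space, had the smallest p of the complex in both fits. It had 60.8, 68.2 and 70.0 CPM in JunD gRNA libraries, against 43.5, 59.9 and 55.1 CPM in Rosa26 gRNA libraries, so the groups did not overlap. Its log2 fold change was 0.33 ± 0.12 (SE) over 6 libraries and 0.21 ± 0.06 over 5 (edgeR adjusted p = 0.417 and 0.0683). Ndufa6, an accessory subunit of the LYR protein family, had 42.0, 44.4 and 45.6 CPM in JunD gRNA libraries, against 27.4, 39.4 and 37.5 CPM in Rosa26 gRNA libraries. Ndufa11, a membrane-arm accessory subunit, had 62.4, 58.6 and 70.8 CPM with the JunD gRNA and 37.0, 56.2 and 55.0 CPM with the Rosa26 gRNA. Both genes were higher in every JunD gRNA library, but neither passed. The log2 fold change of Ndufa6 was 0.34 ± 0.13 over 6 libraries and 0.19 ± 0.06 over 5 (edgeR adjusted p = 0.417 and 0.09005), and that of Ndufa11 was 0.37 ± 0.15 over 6 and 0.20 ± 0.06 over 5 (0.417 and 0.0878). The most abundant gene of the complex, Ndufc2 of the membrane arm, had a log2 fold change of 0.058 ± 0.086 over 6 libraries and 0.016 ± 0.058 over 5, with overlapping groups. Ndufb4 was the gene with every JunD gRNA library lower, at 1.469, 1.291 and 1.487 CPM with the JunD gRNA against 1.559, 1.556 and 1.599 CPM with the Rosa26 gRNA, and its near-identical pseudogene Ndufb4c took 1371 counts against its own 410. Summed with that copy, its JunD gRNA minus Rosa26 gRNA difference was positive, at 0.19 over 6 libraries and 0.036 over 5.

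The core of complex I carries the electrons. Ndufs7, which holds the last iron-sulphur cluster before coenzyme Q, had 62.9, 66.9 and 73.4 CPM in JunD gRNA libraries, against 33.9, 59.9 and 61.3 CPM in Rosa26 gRNA libraries. Its log2 fold change of 0.39 ± 0.19 over 6 libraries was 0.16 ± 0.06 over 5 (edgeR adjusted p = 0.429 and 0.155). Ndufs1, the largest iron-sulphur subunit, had 68.1, 70.2 and 63.9 CPM with the JunD gRNA and 79.7, 68.1 and 66.5 CPM with the Rosa26 gRNA. Rosa26 gRNA replicate 1 was here the highest library, and the log2 fold change was -0.084 ± 0.088 over 6 libraries and 0.00097 ± 0.054 over 5. Ndufv1, which binds NADH, had 124, 123 and 123 CPM in JunD gRNA libraries, against 106, 118 and 111 CPM in Rosa26 gRNA libraries. Ndufs3, a subunit of the coenzyme Q module, stood at 24.0, 26.3 and 25.0 CPM with the JunD gRNA and at 21.9, 22.3 and 22.1 CPM with the Rosa26 gRNA. Neither gene overlapped between groups. The log2 fold change of Ndufv1 was 0.15 ± 0.07 over 6 libraries and 0.11 ± 0.05 over 5 (edgeR adjusted p = 0.419 and 0.218), and that of Ndufs3 was 0.19 ± 0.08 over 6 and 0.18 ± 0.07 over 5 (0.417 and 0.212). A near-identical pseudogene of Ndufs3, Gm12251, held 7659 counts against 6442 on the gene, with a log2 fold change of 0.07 ± 0.14 over 6 libraries and -0.08 ± 0.07 over 5. Summed over both loci, the groups overlapped, at 49.6, 57.3 and 54.1 CPM with the JunD gRNA and 43.2, 52.7 and 52.2 CPM with the Rosa26 gRNA, and the difference in mean log2 CPM was 0.12 over 6 libraries and 0.031 over 5. Ndufs8, another iron-sulphur subunit of the core, had a log2 fold change of 0.11 ± 0.12 over 6 libraries and -0.010 ± 0.064 over 5. Ndufv2, the partner of Ndufv1, stood at 0.081 ± 0.078 over 6 libraries and 0.099 ± 0.059 over 5. The 30 genes of complex I outside this core had a median of 0.24 over 6 libraries, with a range from -0.15 to 0.66, and of 0.092 over 5, with a range from -0.16 to 0.34. Both ends of these ranges were genes with few counts, Ndufa4l2 at the top with 99 in all and Ndufb4 at the bottom with 410.

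Complex II, the only one that is also an enzyme of the citric acid cycle, had the smallest median difference, 0.11 over 6 libraries and 0.050 over 5. Sdhd, a membrane anchor subunit, had 93.9, 94.2 and 94.7 CPM in JunD gRNA libraries, against 68.1, 88.7 and 84.3 CPM in Rosa26 gRNA libraries. The 3 JunD gRNA values lay within 1 CPM of each other and above every Rosa26 gRNA value. Its log2 fold change was 0.23 ± 0.10 over 6 libraries and 0.12 ± 0.05 over 5 (edgeR adjusted p = 0.417 and 0.183). Sdha, the flavoprotein that oxidises succinate, had 236, 235 and 221 CPM with the JunD gRNA and 260.4, 237.0 and 235.7 CPM with the Rosa26 gRNA, a log2 fold change of -0.083 ± 0.069 over 6 libraries and -0.035 ± 0.041 over 5. Sdhb, the iron-sulphur subunit, and Sdhc, the other anchor, overlapped between groups. Sdhb stood at 0.084 ± 0.076 over 6 libraries and 0.055 ± 0.056 over 5, and Sdhc at 0.13 ± 0.10 over 6 and 0.044 ± 0.058 over 5. None of the 4 passed in either fit, and how complexes differ from each other was not tested.

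All 9 genes of complex III had positive fold changes over 6 libraries, and 8 over 5, with medians of 0.21 and 0.11. At an unadjusted p under 0.05, 2 were higher with 6 libraries (background 5.41%) and 5 with 5 (background 8.31%), and none passed after adjustment (edgeR). Uqcr11, a small accessory subunit, led in both fits. Its level was 34.5, 36.9 and 42.0 CPM in JunD gRNA libraries, against 22.7, 32.3 and 32.0 CPM in Rosa26 gRNA libraries. The groups were apart, with log2 fold changes of 0.38 ± 0.14 over 6 libraries and 0.24 ± 0.07 over 5 (edgeR adjusted p = 0.417 and 0.0815). Its copy Gm16418, with 7769 counts against 9157 on Uqcr11, had a log2 fold change of 0.50 ± 0.17 over 6 libraries and 0.37 ± 0.11 over 5 (adjusted p = 0.417 and 0.0595). Uqcrh, the hinge protein that links cytochrome c1 to the rest, had 59.0, 58.4 and 61.7 CPM with the JunD gRNA and 45.9, 53.9 and 54.8 CPM with the Rosa26 gRNA. Uqcrq, the most abundant gene of the complex, had 165, 172 and 192 CPM with the JunD gRNA and 93.9, 162 and 158 CPM with the Rosa26 gRNA. Both genes were apart between groups. Uqcrh had a log2 fold change of 0.21 ± 0.09 over 6 libraries and 0.14 ± 0.05 over 5 (edgeR adjusted p = 0.417 and 0.198), and Uqcrq one of 0.35 ± 0.18 over 6 and 0.14 ± 0.05 over 5 (0.432 and 0.162).

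Cyc1, which encodes cytochrome c1, had 123, 120.4 and 133 CPM in JunD gRNA libraries, against 82.0, 121.5 and 117 CPM in Rosa26 gRNA libraries, with JunD gRNA replicate 2 inside the Rosa26 gRNA range. The log2 fold change of Cyc1 was 0.23 ± 0.13 over 6 libraries and 0.074 ± 0.049 over 5. Uqcrfs1, the Rieske iron-sulphur protein, had a log2 fold change of 0.14 ± 0.07 over 6 libraries and 0.095 ± 0.051 over 5. Uqcrc1, a core protein, stood at 0.11 ± 0.06 over 6 libraries and at 0.11 ± 0.04 over 5, with every JunD gRNA library above every Rosa26 gRNA library. Uqcrc2, its partner, stood at 0.0094 ± 0.066 over 6 libraries and at -0.013 ± 0.047 over 5, with overlapping groups. Uqcrb, the least abundant gene of the complex, stood at 0.16 ± 0.13 over 6 libraries and 0.021 ± 0.070 over 5. It had 6719 counts against 14298 on 3 near-identical copies, and summed with them its difference was 0.14 over 6 libraries and -0.022 over 5.

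Complex IV had a median log2 fold change of 0.19 over its 14 tested genes with 6 libraries and of 0.082 with 5. None of the 14 passed in either fit (edgeR). At an unadjusted p under 0.05, 2 were higher with 6 libraries (background 5.41%) and 4 with 5 (background 8.31%). Cox6a1, a subunit on the outer side of the complex, had 343, 334 and 384 CPM in JunD gRNA libraries, against 194, 327 and 322 CPM in Rosa26 gRNA libraries. The JunD gRNA libraries were all higher, but replicate 2 only just above Rosa26 gRNA replicate 2. Its log2 fold change was 0.33 ± 0.17 over 6 libraries and 0.12 ± 0.05 over 5 (edgeR adjusted p = 0.434 and 0.174). Cox4i1, the largest nuclear subunit and a site of regulation by ATP, had 228, 229.5 and 252 CPM with the JunD gRNA and 163.5, 218 and 215 CPM with the Rosa26 gRNA, again without overlap. Its log2 fold change was 0.25 ± 0.11 over 6 libraries and 0.13 ± 0.04 over 5 (adjusted p = 0.417 and 0.126). Cox5b, a zinc-binding subunit on the matrix side, had 23.5, 22.4 and 25.0 CPM with the JunD gRNA and 14.9, 20.0 and 22.0 CPM with the Rosa26 gRNA. Its protein-coding copy Gm11273 held more of the counts, 19003 against 5827, and showed a log2 fold change of 0.28 ± 0.10 over 6 libraries and 0.21 ± 0.06 over 5 (edgeR adjusted p = 0.417 and 0.064), beside 0.32 ± 0.14 over 6 and 0.17 ± 0.08 over 5 for Cox5b itself. Cox5a, its matrix-side partner, overlapped between groups at 0.20 ± 0.11 over 6 libraries and 0.086 ± 0.070 over 5.

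Complex V had a median log2 fold change of 0.18 over 17 genes with 6 libraries and of 0.071 with 5. Apart from Atp5e and Atp5f1, its lowest p over 6 libraries belonged to Atp5o, the subunit (OSCP) that joins the peripheral stalk to the head. Atp5o had 94.8, 99.6 and 96.7 CPM in JunD gRNA libraries, against 72.3, 86.1 and 90.8 CPM in Rosa26 gRNA libraries. The groups were apart, with log2 fold changes of 0.22 ± 0.09 over 6 libraries and 0.13 ± 0.05 over 5 (edgeR adjusted p = 0.417 and 0.15). Atp5b, the catalytic beta subunit, had 1087, 1090.0 and 1098 CPM with the JunD gRNA and 943.5, 1062 and 1055 CPM with the Rosa26 gRNA. Its groups did not overlap, and its log2 fold change was 0.098 ± 0.068 over 6 libraries and 0.044 ± 0.032 over 5 (edgeR adjusted p = 0.506 and 0.551). Atp5a1, the alpha subunit, overlapped between groups at 0.094 ± 0.069 over 6 libraries and 0.047 ± 0.036 over 5. Atp5c1, the gamma subunit at the axis of the rotor, stood at 117, 119 and 117 CPM in JunD gRNA libraries, against 117, 114 and 120.2 CPM in Rosa26 gRNA libraries, a log2 fold change of 0.0034 ± 0.062 over 6 libraries and 0.00069 ± 0.045 over 5. Atpif1, which encodes an inhibitor of the ATP synthase and lies outside the name rule, had 26.6, 31.0 and 30.8 CPM with the JunD gRNA and 15.2, 29.8 and 28.5 CPM with the Rosa26 gRNA, with a log2 fold change of 0.26 ± 0.22 over 6 libraries and 0.016 ± 0.074 over 5.

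**Figure D4:**
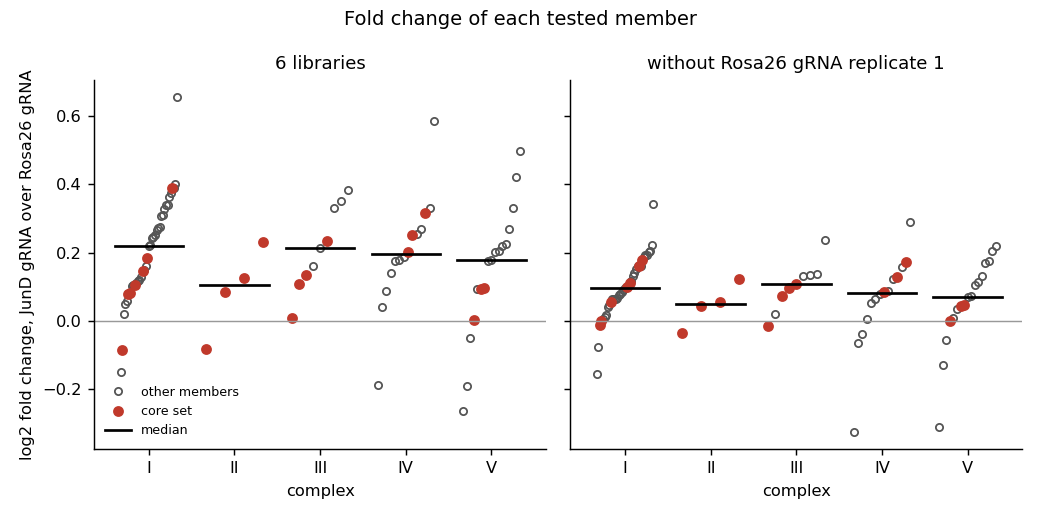
Log2 fold change, JunD gRNA over Rosa26 gRNA, of each of the 81 tested genes by complex, with all 6 libraries on the left and without Rosa26 gRNA replicate 1 on the right. Filled red points are the core set, open points the other members, and black lines the medians, which stand between 0.11 and 0.22 on the left and between 0.050 and 0.11 on the right.

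A core set of 21 genes was also counted apart. It held the 7 core subunits of complex I, the 4 of complex II, Cyc1, Uqcrfs1, Uqcrc1 and Uqcrc2 of complex III, Atp5a1, Atp5b and Atp5c1 of complex V, and Cox4i1, Cox5a and Cox5b of complex IV, which are not catalytic. Its median log2 fold change was 0.11 over 6 libraries and 0.074 over 5, beside 0.22 and 0.089 for the 60 other tested genes. This difference between the sets was not tested. The sets also differ in size, with a median coding length of 846 bases for the core and 337.5 bases for the others. Among the 81 genes, the 59 with under 600 coding bases had medians of 0.22 over 6 libraries and 0.088 over 5, and the 22 longer ones 0.11 and 0.069. Other protein-coding genes under 600 coding bases, 1680 in number, had medians of 0.090 over 6 libraries and 0.041 over 5. The part of length in the difference between the sets was not tested.

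Transcript length and base composition moved with the libraries. Across the 81 genes, which share libraries and are not independent, the Spearman correlation between a gene's deviation and the length of its coding transcript was -0.31, -0.33 and -0.50 in the JunD gRNA libraries, against 0.52, -0.32 and -0.28 in the Rosa26 gRNA libraries. With GC content it was 0.35, 0.24 and 0.45 in JunD gRNA libraries, against -0.46, 0.092 and 0.12 in Rosa26 gRNA libraries. Across 13814 tested genes with a coding transcript the GC values were 0.375, 0.33 and 0.50 with the JunD gRNA and -0.58, 0.14 and 0.048 with the Rosa26 gRNA. The length values across those genes were -0.20, -0.26 and -0.37 with the JunD gRNA and 0.42, -0.12 and -0.099 with the Rosa26 gRNA. Rosa26 gRNA replicate 1 thus had the opposite sign there as well. Each deviation is taken from a mean that includes that library. Rosa26 gRNA replicate 1 lay below the mean of the other 5 libraries in 76 of the 81 genes, which was not counted over all tested genes. The median of these log2 differences over all 81 was -0.40. The lowest values were those of Ndufa4l2, a gene with few counts, and of Atp5k, subunit e of ATP synthase and one of the shortest members, while Sdha and Ndufs1 lay above 0.

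**Figure D5:**
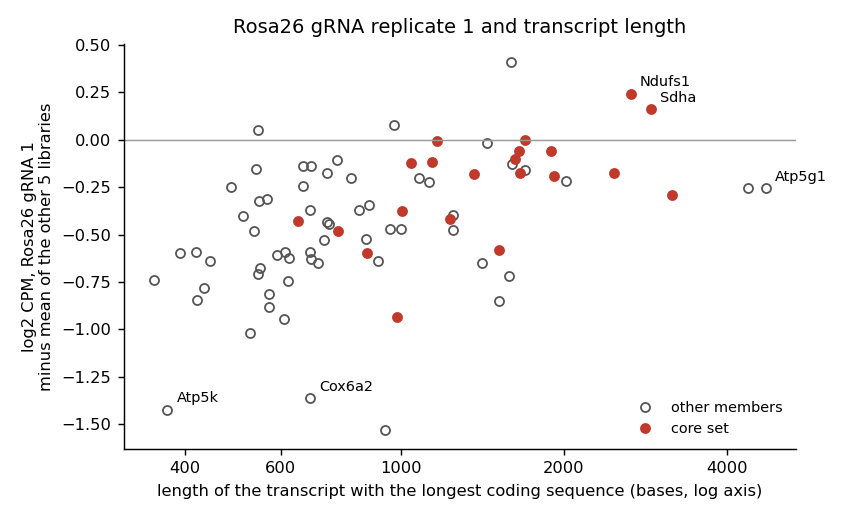
Log2 CPM in Rosa26 gRNA replicate 1 minus the mean of the other 5 libraries, for each of the 81 tested genes, against the length in bases of its transcript with the longest coding sequence (log axis). Filled red points are the core set, whose median is -0.18, and open points the other members, whose median is -0.47.

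After each library's trends with GC content and exon length were fitted and removed, the median log2 fold change of the 81 genes was 0.15 over 6 libraries, with 68 positive (background 48.7%), and 0.071 over 5, with 66 positive (background 49.4%). Taking length and GC content from the coding transcript, an alternative chosen after seeing the data, gave 0.13 over 6 libraries with 66 positive (background 48.7%) and 0.056 over 5 with 63 positive (background 49.3%). Atp5e and Atp5f1 were called with 5 libraries under both corrections (background 1.29% and 1.19% higher), and no other member was. Atp5f1 stood at 0.30 under the first (edgeR adjusted p = 0.000202) and at 0.20 under the second (0.00902), and Atp5e at 0.21 (0.0152) and 0.17 (0.0273). Over 6 libraries both corrections called 0 members (edgeR; background 0.0113% and 0.0282% higher).

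Several subunits come in tissue-specific forms, and Min6 cells mostly expressed the common one. Subunit c, which forms the proton-carrying ring of ATP synthase, is encoded by 3 genes that give the same mature protein. Atp5g3 made up 88.3 ± 0.579% of their summed TPM in JunD gRNA libraries, against 87.6 ± 1.33% in Rosa26 gRNA libraries (SD, n = 3 each). Atp5g1 made up 10.3 ± 0.522% with the JunD gRNA and 10.7 ± 1.21% with the Rosa26 gRNA, and Atp5g2 the rest. These shares leave out the reads on near-identical copies, 24649 counts for Atp5g1 and 323 for Atp5g2. They also depend on the length used, 4912 bases for Atp5g1 and 2181 for Atp5g3 (4715 and 862 for the longest transcripts). The coding sequences have 408 and 423 bases, and the genes themselves had 11746 and 44136 counts. Cox6a1 made up 97.5 ± 0.286% of the Cox6a pair with the JunD gRNA and 97.9 ± 0.353% with the Rosa26 gRNA, the remainder being Cox6a2, the heart and skeletal muscle form. Cox6b1 held 97.4 ± 0.128% of its pair in JunD gRNA libraries, against 97.2 ± 0.245% in Rosa26 gRNA libraries, over the testis form Cox6b2. The shares of subunit c, Cox6a and Cox6b genes differed between groups by less than 1 percentage point.

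Cox7a2 made up 62.8 ± 1.45% of the Cox7a trio in JunD gRNA libraries, against 61.0 ± 0.824% in Rosa26 gRNA libraries. Cox7a2l, which takes part in joining complexes III and IV into supercomplexes, made up 35.2 ± 1.78% with the JunD gRNA and 36.6 ± 0.406% with the Rosa26 gRNA, and the muscle form Cox7a1 the rest. The level of Cox7a1 was 1.28, 1.83 and 1.77 CPM in JunD gRNA libraries, against 1.47, 1.52 and 2.57 CPM in Rosa26 gRNA libraries. Cox4i2, the oxygen-regulated form known from lung, had 0, 0 and 0 counts with the JunD gRNA and 0, 14 and 3 with the Rosa26 gRNA. Cox8b, a muscle form, had 0, 0 and 0 counts with the JunD gRNA and 4, 1 and 0 with the Rosa26 gRNA. Cox8c, a testis form, had 0 counts in all 6 libraries. A count of 0 allows a level of up to 0.060 to 0.073 CPM, taking 3 counts per library as the limit and covering counting error only. Cox7b2 had 4, 3 and 12 counts in JunD gRNA libraries, against 2, 7 and 6 in Rosa26 gRNA libraries, where Cox7b had 35.04 CPM or more in each. Ndufa4, placed with complex I by name but known as a subunit of complex IV, made up 99.6% of the pair with Ndufa4l2, a paralog induced by low oxygen, averaged over 6 libraries. Ndufa4l2 had 0.41, 0.32 and 0.59 CPM with the JunD gRNA and 0.14, 0.34 and 0.36 CPM with the Rosa26 gRNA, and its log2 fold change was 0.66 ± 0.49 over 6 libraries and 0.34 ± 0.53 over 5.

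Near-identical copies limited what the counts of some subunits stand for. Of the 85 coding sequences, 20 matched a transcript of another gene at 95% identity or more over 80% of their length or more. For Atp5l, subunit g of ATP synthase, 305 counts lay on the gene and 25714 on 8 copies, mainly Gm10221. For Atp5h, subunit d of the peripheral stalk, 5097 counts lay on the gene and 27197 on copies, and for Cox7c 3782 and 30534. The log2 fold change of Atp5l was -0.26 ± 0.26 over 6 libraries and -0.31 ± 0.31 over 5, while with the copies added the difference in mean log2 CPM was 0.16 over 6 libraries and 0.022 over 5. For Atp5g2, -0.049 ± 0.18 over 6 libraries and -0.13 ± 0.21 over 5 stood beside 0.12 and 0.028 with its copies. For Atp5g1, whose copy Gm10039 held 24649 counts against 11746, the copy rose with 5 libraries at 0.23 ± 0.06 (edgeR adjusted p = 0.0441), beside 0.31 ± 0.10 over 6 (0.417). The gene did not pass, at 0.17 ± 0.09 over 6 libraries and 0.12 ± 0.06 over 5. The 61 tested genes without such a copy had a median log2 fold change of 0.20 over 6 libraries and 0.079 over 5, and the 20 with one 0.19 and 0.097.

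The other gene lists of the pathway had medians on both sides of 0. Of 12 tested subunits encoded in mitochondrial DNA, 2 had positive fold changes over 6 libraries. The median log2 fold change of the 12 was -0.23, against -0.091 over 5. The 2 positive genes, mt-Co2 and mt-Atp6, had at most 0.70 and 0.35 CPM in any library, and mt-Nd4l and mt-Co3 at most 0.95 and 1.95. By contrast, mt-Co1 had 6107 CPM or more in each library. The sign count and median thus include genes with very few reads, and why they had so few was not tested. With 5 libraries 3 of the 12 fell, mt-Nd4, mt-Nd1 and mt-Co1 (edgeR, background 1.4% lower). Their log2 fold changes were -0.17 ± 0.04, -0.14 ± 0.03 and -0.12 ± 0.03 over 5 libraries (edgeR adjusted p = 0.0274, 0.029 and 0.0426). Over 6 they were -0.35 ± 0.13, -0.23 ± 0.08 and -0.12 ± 0.06 (0.417, 0.417 and 0.423). After either correction for GC content and length 0 passed. The median of the 12 over 5 libraries was -0.0030 under the coding-transcript correction. Likewise 0 fell without JunD gRNA replicate 2 as well or without either remaining Rosa26 gRNA library. The 17 tested assembly factors of complex I had medians of 0.027 over 6 libraries and -0.0096 over 5, and the 21 of complex IV 0.057 and -0.000068. Assembly factors of complex III, 6 in number, stood at -0.11 and -0.054, the 4 of complex II at 0.10 and 0.036, and the 4 of complex V at 0.17 and 0.11. The 13 genes of coenzyme Q synthesis stood at 0.079 and 0.0038, and the 8 tested subunits and carriers outside the name rule at 0.12 and 0.050. Of the 15 regulators of nuclear respiratory genes, 5 were positive over 6 libraries and 6 over 5, with medians of -0.015 and -0.041. None of the genes in these lists passed in either fit other than the 3 mitochondrial ones.

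Among them, Uqcc2, a complex III assembly factor, had 85.2, 85.2 and 109 CPM in JunD gRNA libraries, against 60.1, 82.6 and 76.5 CPM in Rosa26 gRNA libraries. All JunD gRNA libraries were above all Rosa26 gRNA libraries, at a log2 fold change of 0.35 ± 0.14 over 6 libraries and 0.23 ± 0.07 over 5 (edgeR adjusted p = 0.417 and 0.1002). Coa3, which helps translate a mitochondrial subunit of complex IV, had 74.9, 79.1 and 86.9 CPM with the JunD gRNA and 61.0, 72.7 and 71.2 CPM with the Rosa26 gRNA, a log2 fold change of 0.23 ± 0.09 over 6 libraries and 0.16 ± 0.06 over 5 (edgeR adjusted p = 0.417 and 0.14). Ppargc1a, the coactivator known as PGC-1 alpha that drives many nuclear respiratory genes, was at 3.93, 4.02 and 3.83 CPM with the JunD gRNA and 7.16, 4.89 and 4.90 CPM with the Rosa26 gRNA. Its groups were apart, but its log2 fold change of -0.52 ± 0.17 over 6 libraries and -0.32 ± 0.15 over 5 did not pass (edgeR adjusted p = 0.417 and 0.275).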

How the data were processed

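Total RNA of 6 Min6 libraries, 3 per guide, was sequenced with Illumina libraries, per the labels' protocols. The authors deposited raw read counts per gene, and the submitters' processing notes name TopHat2, featureCounts and mm10. Their versions, the strand setting, the annotation release and the handling of multi-mapped reads are not given there or in the labels, so counts of overlapping genes and of near-identical copies are uncertain. Symbols, lengths and coordinates came from GENCODE M21 on GRCm38, matched for 53274 of 53379 identifiers, and promoters from RefSeq. All genes were fitted with edgeR 4.0.16 in R 4.3.3 (TMM, filterByExpr, quasi-likelihood, two-sided p, Benjamini-Hochberg at 0.05), once with 6 libraries and once without Rosa26 gRNA replicate 1. SEs were derived from the F statistic and are approximate. DESeq2 1.42.0, limma-voom 3.58.1, other scalings and filters, spline corrections (5 degrees of freedom) for GC content and length, a replicate block and each library left out were alternatives. Copies were found with blastn 2.17.0. The fit was also run on simulated counts, drawn gene by gene without a library-wide trend in GC content or length. That run cannot show how the fit behaves with a library that stands apart as Rosa26 gRNA replicate 1 did. Depth ran from 41071566 to 50024931 counts, so the counting error is small for most members, though 8 of the tested genes had under 2000 counts in all. Every pair of libraries differed by more than sampling noise (chi-square of their counts over its degrees of freedom at least 3.22).

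The members and gene lists were chosen with earlier results of these data known. Members described one by one were the pair with the smallest p in each complex in each fit, the most and least abundant of each complex, those called, a core set of 21 genes, and the isoform groups. The values of 1 gene of that set are not reported here. Of the other lists, those called and up to 2 more per list were eligible. The labels do not say whether replicate numbers pair the libraries. Correlations of same-numbered deviations from the group means were 0.0537, -0.0357 and 0.0717. They cannot settle pairing, since the Rosa26 gRNA mean includes replicate 1, which stood apart.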

Additional observations from a re-analysis of the deposited data

How the results depend on the processing

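With 6 libraries, the number of genes called (0 in edgeR) was 68 with DESeq2, 86 with no count filter, 14 with the GC and length correction, 22 with the coding-transcript version added after seeing the data, and 0 to 523 with 1 library left out, the 523 without Rosa26 gRNA replicate 1. Members called higher ran from 0 to 2 with 1 library left out, and were 0 in each other setting. The median of the 81 genes ran from 0.086 to 0.26 with 1 library left out, and that of complex V from 0.071 to 0.23. Without Rosa26 gRNA replicate 1 and with 1 more library left out, the median of the 81 genes ran from 0.058 to 0.11. No other scaling, filter or tool took a median of a complex past the spread between libraries. That spread, the pooled SD of library medians within groups, includes Rosa26 gRNA replicate 1. For complexes I to V it was 0.15, 0.078, 0.18, 0.19 and 0.10, beside medians of 0.22, 0.11, 0.21, 0.19 and 0.18. A large shift of a median could therefore stay within it. Whether the replicate numbers pair the libraries is not given in the labels. With the replicate block, 0 genes and 0 members were called and the median was 0.20, and with the block and the GC and length correction 8 genes were called. With 5 libraries, 870 genes and 9 members were called without a count filter. With 1 more library left out, 46 to 672 genes (51 without Rosa26 gRNA replicate 2) and 0 to 9 members were called. Other pathway genes called lower (3) were 5 with no filter, 0 with either correction, and 0 to 4 with 1 more library left out. Counting length by the longest transcript gave shares of 93.9% for Atp5g3, 95.7% for Cox6b1 and 64.2% for Cox7a2. Genes near 0 changed sign. Under the GC and length correction without and with the block, values were -0.017 and -0.016 for Atp5a1, -0.046 and -0.045 for Atp5c1, -0.00275 and -0.00178 for Cox7a2l, 0.030 and 0.030 for Ndufs1, -0.024 and -0.021 for Ndufs8, -0.015 and -0.012 for Ndufv1, and -0.019 and -0.020 for Sdhb. Under the coding-transcript version they were -0.017 for Atp5c1, -0.0053 for Cox7a2l, -0.029 for Ndufs8, -0.019 for Ndufv1, -0.061 for Sdhb and -0.080 for Uqcrc1. Library totals gave -0.013 for Atp5c1 and -0.00631 for Uqcrc2, and the stricter filter -0.0051 for Atp5c1. With 1 library left out, sign changed within -0.013 to 0.024 for Atp5c1, -0.13 to 0.015 for Atp5g2, -0.32 to 0.12 for Cox7a1, -0.039 to 0.10 for Cox7a2l, -0.063 to 0.17 for Cox7b, -0.025 to 0.12 for Ndufc2, -0.13 to 0.00097 for Ndufs1, -0.010 to 0.22 for Ndufs8, and -0.013 to 0.044 for Uqcrc2. The cause was not tested. Depth bears most on the 8 tested genes with under 2000 counts in all.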

Other observations

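Of the 12 symbols left out of the 85 for their biotype, 3 had over 1000 counts in all. Ndufb1-ps, annotated as a non-coding RNA at a bidirectional promoter, had 1635, 1621 and 1796 counts in JunD gRNA libraries, against 1023, 1812 and 1715 in Rosa26 gRNA libraries. Cox6c2, a processed pseudogene near-identical to Cox6c, had 940, 1002 and 1157 counts with the JunD gRNA and 536, 1118 and 1100 with the Rosa26 gRNA. Ndufb4c, a processed pseudogene of Ndufb4, had 210, 232 and 280 counts with the JunD gRNA and 147, 265 and 237 with the Rosa26 gRNA. In each of the 3, Rosa26 gRNA replicate 1 had the lowest count, as in most of the tested members.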
